A study of Mus musculus with 106 samples.

Results

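H3K4me3 was compared between bone marrow–derived macrophages (BMDMs) given LPS+IFN-γ and BMDMs left unstimulated. The 23 H3K4me3 lists of BMDMs were taken by their labels out of 106 samples: 12 lists of stimulated cells (6 from diabetic mice, 6 from control mice) and 11 lists of unstimulated cells (5 from diabetic mice, 6 from control mice). The list numbered 3 of unstimulated diabetic BMDMs was not analysed here. A list holds the intervals in which immunoprecipitated chromatin exceeded the input chromatin of the same culture, called separately for each library, and it carries no read count.

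All mice were C57BL/6J, 12 to 14 weeks old when they were assigned to the groups. Diabetes was then induced with streptozotocin, a drug that destroys pancreatic β cells, at 42 to 45 mg/kg per day for 5 days. Tissue was taken 6 weeks after the last injection, from mice whose blood glucose was above 13.9 mmol/L, and control mice were not diabetic. Marrow of both kinds of mice was differentiated for 7 days with L929-conditioned medium in 5 mmol/L glucose, so that control and diabetic cells shared the same culture conditions. The stimulus was 100 ng/mL lipopolysaccharide (LPS) plus 10 ng/mL interferon-γ (IFN-γ) for 16 hours, and unstimulated cells received medium alone. The doses and the time are those of the study's general BMDM methods. Its ChIP-seq methods state no stimulation time, and its RNA-seq and ATAC-seq of BMDMs used shorter times. Per the study's methods a replicate is an individual animal. The labels do not say which stimulated and unstimulated lists came from the same animal.

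Trimethylation of lysine 4 on histone H3 sits at the starts of genes that are active or held ready, and broad domains of it mark genes of cell identity. LPS is sensed by Toll-like receptor 4 and signals through NF-κB and interferon regulatory factors, and IFN-γ signals through Jak kinases and Stat factors. Together they drive macrophages into the proinflammatory M1 state, with induction of cytokines, chemokines, interferon-induced GTPases and antigen presentation genes.

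A promoter was the 1000 bp on either side of an annotated start site of a protein-coding gene. In each list the 21938 genes were ranked by the strongest interval at their promoter, on the −log10 p of the peak caller, and the rank was written as a percentile from 0 to 100, with 100 the strongest. Genes with no interval in a list shared a tied low rank, between about 10 and 17 depending on the list, so a value in that range says that the promoter was not marked. A rank is relative: it shows a promoter's place among all promoters of that list and not the amount of H3K4me3. Differences are given in points of this percentile, as stimulated minus unstimulated with diabetes as a term, for the 16910 genes marked in at least 6 of the 23 lists.

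In H3K27ac, 3 lists of control mice were in doubt and are named before any result. The median rank of the genes that the diabetic H3K27ac lists called higher, minus that of the genes called lower, was −36.9 points in control LPS+IFN-γ list 5, −5.68 in control unstimulated list 5 and −15.4 in control unstimulated list 6. The other control H3K27ac lists lay at −44.7 to −23.3 unstimulated and −8.37 to 5.36 stimulated. Both lists numbered 5 thus lay in the range of the opposite state, and unstimulated list 6 lay between the ranges. The H3K4me3 lists of the same cultures stayed in the comparisons, and results are given with and without them. Because these lists were singled out by the response of the same cultures, a p-value without them is too small and is given as a description.

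The 23 lists differed in size more than the states did. They held between 51382 and 277213 intervals, marked between 65.4% and 79.3% of genes, and had a median promoter width between 653 and 1260 bp over the 12760 genes marked in all of them. Unstimulated control lists held 81003 to 212718 intervals (median 161118), stimulated control lists 74565 to 277213 (median 140744), unstimulated diabetic lists 66146 to 137710 (median 96580) and stimulated diabetic lists 51382 to 170702 (median 125224). The states overlapped in all 5 measures taken. The stimulated lists differed by 0.02 in log2 number of intervals, 0.04 in log2 covered length, 0.0531 percentage points in genes marked, −0.335 percentage points in genes holding one of the 10000 strongest intervals, and 0.05 in log2 median width (adjusted p = 0.971 for each, exact permutation of states within disease groups, two-sided, 5 measures).

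**Figure D1:**
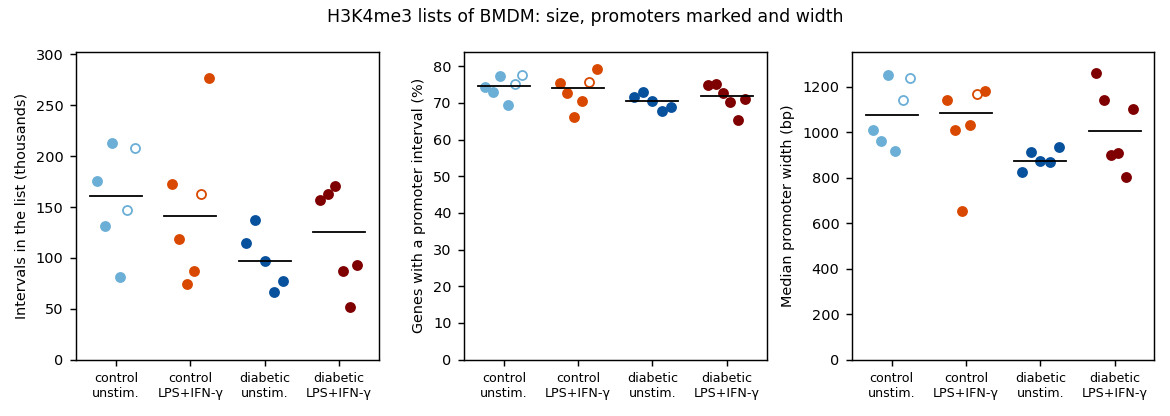
Each point is one H3K4me3 list, by disease and state, and the line is the group median; the panels show intervals in units of 1000, genes with a promoter interval in percent and median promoter width in bp, and open points are the 3 control lists in doubt. Stimulated and unstimulated lists overlap in every panel, with widths from 653 to 1260 bp.

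The cells were checked against fixed markers. Of 20 macrophage markers, 9 were marked in all 23 lists, among them Maf, Cebpb, Fcgr3, Mertk, Ctsb, Lgals3 and the myeloid transcription factors Spi1 and Cebpa. The defining surface gene Itgam was marked in 0 lists, Adgre1, which encodes F4/80, in 4 and Lyz2 in 5. Of 30 markers of other cell types, 8 were marked in all 23 lists (Klf1, Pax5, Gata2, Meis1, Kit, Flt3, Col1a1 and Epcam) and 3 in none. Of 20 genes silent in macrophages, 9 were marked in all lists and 2 in none. Of all 21938 genes, 58.2% were marked in all 23 lists and 17.1% in none. Being marked in all lists thus did not set the macrophage markers apart. Promoter intervals were present at genes of other cell types and absent at some defining macrophage genes. Of 21 tested markers of other cell types, 0 passed after adjustment and 1 was higher at an unadjusted p under 0.05, with a median difference of 1.62 points against −0.171 for all tested genes.

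No gene passed the test of promoter rank. Of 16910 genes, 0 were called higher and 0 lower with LPS+IFN-γ (0% in each direction, limma, adjusted p under 0.05), and the smallest adjusted p was 0.446. At an unadjusted p under 0.05, 461 genes were higher (2.73%) and 453 lower (2.68%). The median gene differed by 3.33 points in either direction, with a 95% interval of ±10.2 points, so differences of a few points could not be told from 0. No gene had every stimulated list above, or below, every unstimulated list in both disease groups (0% each way). Within diabetic lists 49 genes lay wholly above (0.29%) and 49 wholly below (0.29%), and within control lists 8 above (0.0473%) and 16 below (0.0946%).

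The genes with the smallest p that were higher in stimulated lists were led by Rgs2, Hist1h1c and Iigp1. The upstream sequences of Rgs2 and of the histone genes Hist1h1c, Hist1h3d and Hist1h4c are shown because they were among the genes of smallest p, or belong to the histone genes described with them. They come from RefSeq (GRCm38.p6), read 5′ to 3′ on the strand of the gene up to its first exon. Capitals mark CCAAT or its reverse complement ATTGG, the letters bound by the factor NF-Y, and TATAAA or TTTATA, the TATA box letters, which a script searched on both strands. Rgs2 lies at chr1:144004162-144004399 on the minus strand, Hist1h1c at chr13:23738557-23738806 on the plus strand, Hist1h3d at chr13:23575513-23575762 on the plus strand and Hist1h4c at chr13:23698459-23698708 on the minus strand.
Rgs2: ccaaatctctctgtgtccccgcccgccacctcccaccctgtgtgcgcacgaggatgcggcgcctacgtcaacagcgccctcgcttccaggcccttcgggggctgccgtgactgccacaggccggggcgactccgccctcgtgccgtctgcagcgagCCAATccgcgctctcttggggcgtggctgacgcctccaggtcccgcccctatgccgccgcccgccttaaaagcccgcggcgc
Hist1h1c: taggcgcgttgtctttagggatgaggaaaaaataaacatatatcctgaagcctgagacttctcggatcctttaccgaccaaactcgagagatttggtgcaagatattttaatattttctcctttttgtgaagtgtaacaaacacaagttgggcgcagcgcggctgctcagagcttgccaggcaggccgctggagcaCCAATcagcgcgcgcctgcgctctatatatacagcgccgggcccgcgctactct
Hist1h3d: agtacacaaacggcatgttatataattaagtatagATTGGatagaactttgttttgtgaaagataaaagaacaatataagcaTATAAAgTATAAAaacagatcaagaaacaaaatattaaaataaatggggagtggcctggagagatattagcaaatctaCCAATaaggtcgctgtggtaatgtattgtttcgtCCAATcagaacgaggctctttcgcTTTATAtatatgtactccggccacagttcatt
Hist1h4c: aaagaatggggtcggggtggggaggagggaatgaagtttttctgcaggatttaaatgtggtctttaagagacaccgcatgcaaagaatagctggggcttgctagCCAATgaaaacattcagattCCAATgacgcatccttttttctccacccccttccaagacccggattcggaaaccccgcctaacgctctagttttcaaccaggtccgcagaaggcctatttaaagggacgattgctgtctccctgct

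Rgs2 encodes a regulator of G protein signalling that shortens signals from Gq-coupled receptors. Its promoter ranked at 13.5 to 47.5 (median 35.5) in unstimulated control lists, 26.2 to 60.6 (median 43.5) in stimulated control lists, 13.5 to 32.1 (median 14.7) in unstimulated diabetic lists and 33.0 to 56.5 (median 50.1) in stimulated diabetic lists. The diabetic groups did not overlap and the control groups did. It was marked in 12 of 12 stimulated lists and 5 of 11 unstimulated lists. The difference was +21.0 points (SE 4.6, adjusted p = 0.446, limma), with +30.3 in diabetic and +12.6 in control mice. Without the 3 control lists it was +27.1 points (SE 4.43, adjusted p = 0.00704), the smallest of all genes in that setting.

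Hist1h1c encodes a linker histone H1. Its rank was 47.8 to 76.4 (median 56.4) in unstimulated control lists, 74.0 to 95.7 (median 83.5) in stimulated control lists, 42.3 to 77.1 (median 63.2) in unstimulated diabetic lists and 63.3 to 97.0 (median 82.4) in stimulated diabetic lists. The ranges of the states overlapped in both disease groups. The difference was +23.9 points (SE 5.29, adjusted p = 0.446). Its promoter held one of the 10000 strongest intervals in 12 of 12 stimulated lists and 5 of 11 unstimulated lists.

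Iigp1 encodes an interferon-induced GTPase of cell-autonomous defence (chromosome 18, start sites from 60376027 to 60382683, plus strand). It was marked in 10 of 12 stimulated lists and 1 of 11 unstimulated lists, so its ranks of 11.2 to 16.2 in unstimulated lists were those of an unmarked promoter, except for 30.6 in control unstimulated list 5. Stimulated control lists reached 12.2 to 47.8 (median 32.8) and stimulated diabetic lists 17.3 to 79.2 (median 34.2). The 2 stimulated lists without an interval were control list 5 and diabetic list 5, and the marked unstimulated list and the unmarked stimulated control list were both among the 3 in doubt. The difference was +20.1 points (SE 4.58, adjusted p = 0.447), and without those 3 lists +23.6 (adjusted p = 0.0774).

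The other 3 genes of smallest p on the higher side did not pass either. Hnmt, which encodes the histamine-inactivating methyltransferase, differed by +14.6 points (13.5 to 46.4 in unstimulated lists, 29.0 to 54.0 in stimulated lists). Itgal, the integrin αL chain of LFA-1, differed by +13.4 points (13.5 to 34.6 and 12.2 to 49.4). It was marked in 11 of 12 stimulated and 6 of 11 unstimulated lists. The Itgal interval lay within 127296210 to 127297929 in some lists and 127308269 to 127310388 in others, so different start sites were read. Hist1h3d, a replication-dependent histone H3 gene, differed by +16.5 points (50.0 to 91.6 and 71.0 to 96.5). The Hist1h3d interval read lay within 23575641 to 23576358 in some lists and upstream, within 23574362 to 23575013, in others. The adjusted p was 0.894 for each of Hnmt, Itgal and Hist1h3d (limma).

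On the lower side the 6 genes of smallest p did not pass. Erich4 was marked in 11 of 11 unstimulated lists, at 28.6 to 37.9 (median 31.7), and in 5 of 12 stimulated lists. Over all 12 stimulated lists its ranks were 12.4 to 30.0 (median 17.1), where the low values and the median were those of an unmarked promoter. The difference was −12.3 points (SE 3, adjusted p = 0.71, limma). Hspa9, the mitochondrial chaperone mortalin, ranked at 77.8 to 98.8 (median 89.8) in unstimulated lists and 54.5 to 84.5 (median 74.0) in stimulated lists, a difference of −18.4 points (SE 4.58, adjusted p = 0.71), also −18.4 in each disease group alone. Ap5z1, a subunit of the adaptor protein complex 5, ranked at 72.0 to 99.4 (median 87.8) and 48.5 to 88.2 (median 70.8), a difference of −20.3 points (SE 5.11, adjusted p = 0.71). Ankle1 differed by −18.1 points (adjusted p = 0.71), Tarbp1, an RNA methyltransferase, by −19.6 (adjusted p = 0.894) and Denr, a factor that frees ribosomes for translation, by −20.1 (adjusted p = 0.894). In Erich4, Hspa9 and Ap5z1 the stimulated and unstimulated ranges overlapped.

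**Figure D2:**
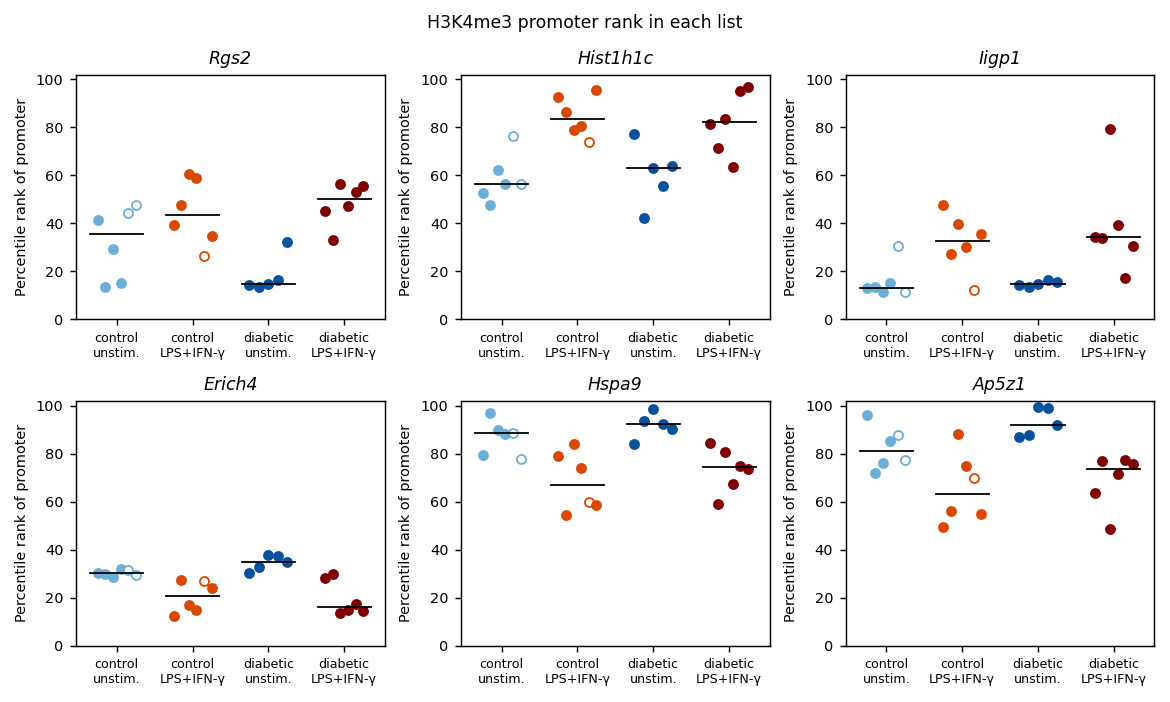
Percentile rank of the promoter (0 to 100) of 6 genes in each H3K4me3 list, by disease and state, with the group median as a line and the 3 control lists in doubt as open points. The upper genes rank higher and the lower genes lower in stimulated lists (Rgs2 +21.0 and Ap5z1 −20.3 points), and none passed the test in all 23 lists.

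Il6, Nos2, Cd274, Irf1 and Hk1, taken whatever their values, showed no called difference. Nos2, inducible nitric oxide synthase, was marked in all 23 lists. It ranked at 51.9 to 90.3 (median 67.3) in unstimulated and 43.0 to 74.5 (median 63.0) in stimulated lists. The difference was −9.33 points (95% interval ±10.7, adjusted p = 0.938, limma). Nos2 start sites ran from 78920787 to 78925203 on the plus strand. The interval read lay within 78924106 to 78925995 in every list, so these ranks belong to the region of the last start site. In control and diabetic LPS+IFN-γ list 3 it ended at 78924510 and 78924509, upstream of that site. The first start site was not ranked separately. Il6 was marked in 3 of 12 stimulated lists and 0 of 11 unstimulated lists, too few to be tested. Cd274, which encodes PD-L1, differed by −6.13 points (±13.0, adjusted p = 0.965), Irf1 by +5.69 (±10.8, adjusted p = 0.961) and Hk1, a hexokinase of the first step of glycolysis, by +1.81 (±9.78, adjusted p = 0.992). Cd274, Irf1 and Hk1 were marked in all 23 lists, and their stimulated and unstimulated ranges overlapped.

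The upstream sequence of Il6 is shown because it holds the letters of an NF-κB site (GGGA, 2 bases of any kind, TTCC, in capitals with CCAAT) at a promoter that was seldom marked. It lies at chr5:30012864-30013113 on the plus strand (RefSeq, GRCm38.p6). The same letters were found in 1.21% of 32851 promoters of up to 250 bases.
Il6: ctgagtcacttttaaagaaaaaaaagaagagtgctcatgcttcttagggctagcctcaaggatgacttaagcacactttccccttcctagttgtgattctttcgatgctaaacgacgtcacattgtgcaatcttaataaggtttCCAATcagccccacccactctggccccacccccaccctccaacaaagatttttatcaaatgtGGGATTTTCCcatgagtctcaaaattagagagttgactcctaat

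The gene lists are described by role, by their counts and medians beside those of all tested genes, and none of their members passed after adjustment. Genes higher at an unadjusted p under 0.05 made up 2.73% of all genes tested.

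Interferon-γ–induced GTPases and other genes of cell-autonomous defence had 15 tested members of 21. Of these, 3 were higher at an unadjusted p under 0.05 and 0 lower, with a median difference of +5.22 points against −0.171 for all genes. In diabetic mice alone 6 of 15 were higher, where the background was 3.76% higher and 2.7% lower, and the median was +11.7 points. In control mice alone 1 of 15 was higher and 1 lower, where the background was 1.56% higher and 1.76% lower, and the median was +0.378 points. The median rank of the list's genes was 14.7 to 30.9 in unstimulated diabetic lists and 31.4 to 50.1 in stimulated diabetic lists, which did not overlap. In control lists it was 29.8 to 35.8 and 27.6 to 39.9, which did. The middle value of the unstimulated diabetic lists was 16.2, in the range of an unmarked promoter. The gap in diabetic mice was thus in part one between unmarked and marked promoters. Beside Iigp1, Gbp3 differed by +8.74 points (marked in 10 of 12 stimulated and 5 of 11 unstimulated lists), Gbp6 by +9.85 (6 of 12 and 2 of 11) and Ifi47 by +13.2 (12 of 12 and 11 of 11). Acod1, the itaconate-producing enzyme, and Casp4 were marked in 0 lists.

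Chemokines had 13 tested members, of which 4 were higher and 0 lower, with a median of +4.46 points. Ccl5, a chemoattractant of T cells and monocytes, ranked at 26.8 to 38.1 in unstimulated and 30.9 to 65.8 in stimulated control lists, and at 13.5 to 33.1 and 17.3 to 84.9 in diabetic lists. It was marked in 11 of 12 stimulated and 8 of 11 unstimulated lists and differed by +18.1 points (adjusted p = 0.894). Cxcl2, a neutrophil attractant, differed by +12.9 points (marked in 12 of 12 stimulated and 10 of 11 unstimulated lists). Cxcl10, an interferon-induced T cell attractant, differed by +11.4 (7 of 12 and 3 of 11). Ccl2, the main monocyte attractant, differed by +10.2 (9 of 12 and 6 of 11). Where lists held no interval, these differences set unmarked against marked promoters. The adjusted p values of Cxcl2, Cxcl10 and Ccl2 lay between 0.901 and 0.92 (limma). Ccl12, Ccl17 and Cxcl9 were marked in 0 lists. The list's median was +9.35 points in diabetic and +1.22 in control mice.

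Interferon-stimulated antiviral genes had 26 tested members, of which 5 were higher and 1 lower, with a median of +3.59 points, +8.38 in diabetic and −0.0528 in control mice. Isg15, a ubiquitin-like modifier, differed by +16.3 points (marked in 11 of 12 stimulated and 6 of 11 unstimulated lists). Ifit2 differed by +16.0 (9 of 12 and 3 of 11) and Oasl1 by +14.7 (12 of 12 and 11 of 11). Usp18, the protease that removes Isg15, went the other way by −14.7 points (adjusted p = 0.894). Usp18 ranked at 51.5 to 87.8 in unstimulated diabetic lists and 37.2 to 42.6 in stimulated diabetic lists, with no overlap, and at 28.4 to 49.4 and 29.7 to 42.5 in control lists. Its difference was −27.6 points in diabetic and −2.94 in control mice.

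Inflammatory cytokines and enzymes had 15 tested members of 21, of which 2 were higher and 0 lower, with a median of +1.25 points. Il27, a cytokine of the interleukin-12 family, differed by +12.9 points (marked in 12 of 12 stimulated and 10 of 11 unstimulated lists). Ptgs2, the inducible cyclooxygenase, differed by +10.9 (12 of 12 and 11 of 11) and Il12b by +9.62 (9 of 12 and 5 of 11). Il1a, Il1rn and Ifnb1 were marked in 0 lists and Il1b in 1. Toll-like receptor and NF-κB genes had 32 tested members, of which 4 were higher and 0 lower, with a median of +2.98 points (+4.25 in diabetic, +3.71 in control mice). Tnfaip2 differed by +15.8 points, Nfkbid, an atypical IκB, by +15.7, Rela, the p65 subunit of NF-κB, by +11.4 and Bcl3 by +11.1.

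Interferon and Jak-Stat signalling genes had 1 of 20 higher and 2 lower and a median of −1.05 points. The receptor chain Ifnar2 differed by +13.0 points, the kinase Jak1 by −14.5 and the feedback inhibitor Socs1 by −10.2. Antigen presentation genes had 1 of 21 higher, with a median of −0.522, and genes of the macrophage metabolic response 2 of 21, with a median of +1.81. The iron-sequestering protein Lcn2 differed by +11.8 points (marked in 11 of 12 stimulated and 7 of 11 unstimulated lists). The hexokinase Hk2 differed by +12.6 (12 of 12 and 11 of 11). Alternative activation genes had 0 of 15 in either direction (median −1.86), housekeeping genes 0 of 20 (median −0.113), cell cycle genes 0 of 28 (median +1.68) and genes silent in macrophages 0 of 17 (median −2.03). Macrophage markers had 0 of 15 higher and 1 lower (median +0.313).

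**Figure D3:**
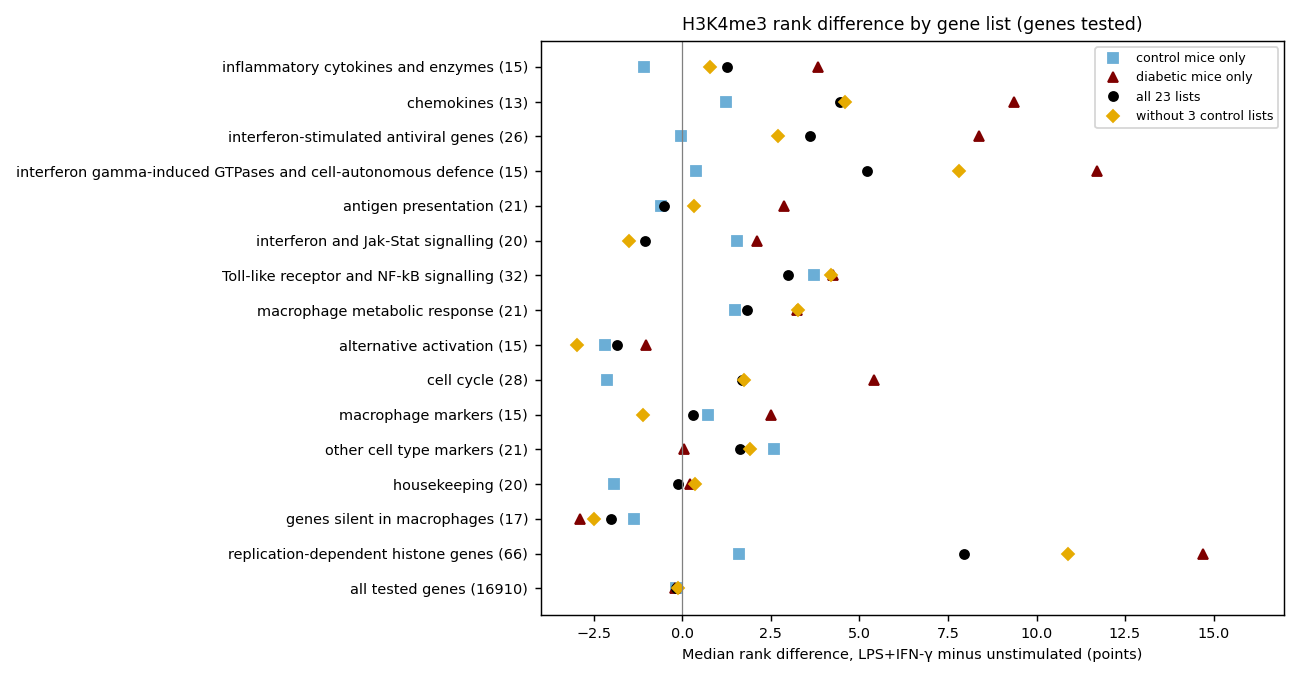
Median difference in percentile rank (points, stimulated minus unstimulated) over the tested genes of each list, with the number of genes in parentheses, in all 23 lists, without the 3 control lists in doubt, and in each disease group alone. The diabetic medians reach 11.7 points for the interferon-γ–induced GTPases and 14.7 for the histone genes, against −0.204 for all genes.

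Replication-dependent histone genes encode the core and linker histones made in S phase, and they were gathered after Hist1h1c and Hist1h3d had been seen among the genes of smallest p. Of 67 such genes, 66 were tested and 54 lie on chromosome 13 between positions 21716143 and 23934462. Neighbours can share an interval: the 67 genes had 55 distinct patterns of intervals. In all 23 lists 6 of 66 were higher and 0 lower at an unadjusted p under 0.05, and 55 of 66 differences were positive, with a median of +7.95 points against −0.171 for all genes. Without the 3 control lists 29 of 66 were higher (43.9%) and 0 lower, where the background was 3.05% higher and 2.77% lower, and the median was +10.9 points. In diabetic mice alone 22 of 66 were higher (33.3%, against 3.76% of all genes) with a median of +14.7 points. In control mice alone 1 of 66 was higher (1.52%), near the 1.56% of all genes, with a median of +1.59 points.

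The median rank of the histone genes was 64.0 to 69.8 in unstimulated and 78.6 to 93.2 in stimulated diabetic lists, which did not overlap. In control mice it was 55.2 to 70.9 in unstimulated lists 1 to 4, and 80.1 and 84.6 in lists 5 and 6. Stimulated control lists lay at 63.4 to 84.0, except for 59.8 in list 5. All 5 families had positive medians in all lists: H1 +9.98, H2A +5.87, H2B +8.83, H3 +2.88 and H4 +10.4 points. Hist1h4c ranked at 36.9 to 54.6 in unstimulated and 58.6 to 96.7 in stimulated diabetic lists, and without the 3 control lists its difference was +32.5 points (SE 5.79, adjusted p = 0.0173). Hist1h4c and Rgs2 were the 2 genes called in that setting, both higher (0.0118% of 16910), and 0 were lower. Of the cell cycle list, 0 of 28 were higher in all 23 lists. In diabetic mice 22 of 28 differences were positive (78.6%, against 49.1% of all genes) and 1 was higher at an unadjusted p under 0.05, with a median of +5.4 points. The median rank of that list was 66.7 to 70.9 in unstimulated diabetic lists and 65.6 to 84.9 in stimulated diabetic lists, which overlapped, and its part in the histone values was not tested. The H3K27ac ranks of the same histone genes had a median difference of −4.83 points against −0.229 for all genes, and 0 of 66 were called.

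The histone promoters shared sequence features that the choice of genes did not use. CCAAT was found in 49 of 60 histone promoters with a RefSeq entry (81.7%) and in 33.8% of 32851 promoters, and TATAAA in 28 of 60 (46.7%) and 12.4%. The interferon-stimulated response element letters (GAAA, 2 bases of any kind, GAAA) were found in 1.67% of histone promoters against 2.98%, the interferon-γ-activated site letters TTCNNNGAA in 3.33% against 7.02%, and the NF-κB letters in 0% against 1.21%. Histone promoters had a median of 9 CpG and 44.8% GC, against 6 and 52.4% for all promoters. Promoters held up to 250 bases and some were shorter. The sets were not matched for length, on which the shares with a motif and the CpG counts depend.

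Promoter width gave 0 genes called wider and 0 narrower of 12760 in all 23 lists (0% each way, limma, smallest adjusted p 0.149). At an unadjusted p under 0.05, 364 were wider (2.85%) and 276 narrower (2.16%). The smallest p fell on the interval shared by Pjvk and Prkra, the latter the activator of the double-stranded RNA kinase PKR, on chromosome 2. Before normalization its width was 704 to 858 bp in unstimulated and 1067 to 1729 bp in stimulated diabetic lists, with no overlap. In control lists it was 750 to 1655 bp and 700 to 1659 bp. The median promoter width of whole lists was 825 to 935 bp in unstimulated and 802 to 1260 bp in stimulated diabetic lists. The share of all genes without overlap in width was not taken. After normalization the difference of the shared interval was +0.60 in log2 width (adjusted p = 0.149, limma). The next wider genes were Gm13277 (+0.71), Mcf2l (+0.63) and Lactb2 (+0.37). The narrower genes of smallest p were Dll3 (−0.37), Ppp1r3g (−0.43), Zc3hav1, the zinc-finger antiviral protein ZAP (−0.58), the death receptor Fas (−0.38) and Notch3 (−0.55).

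Without the 3 control lists 20 genes were called wider (0.157%) and 0 narrower. They rested on 18 distinct intervals, with log2 differences from 0.52 to 0.88. The Pjvk and Prkra interval differed by +0.73 (SE 0.1, adjusted p = 0.000879). The others, named after their values were seen, included Enc1, Rrm2b, Ankrd13d, Eef2kmt, Gm13277, Casp2, Wwp1, Chp1, Exd1, Gm13287, Rnf126, Asb1, Hist1h4k, Bambi, Hsd17b7, Ppp1r21 and Mcf2l. Casp2 encodes an initiator caspase, Rrm2b the p53-induced subunit of ribonucleotide reductase, and Bambi a decoy receptor of the TGF-β family. By rank in all 23 lists, none of the 20 was called, and the differences ran from −5.67 points for Bambi to +8.98 for Ppp1r21.

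The 3 lists left out of that fit were then read for the same 20 genes. These genes were called on the other 20 lists, so the gap between the states in those lists was fixed by the choice and is given as a description. In the 20 lists of the fit the median normalized width was 625 to 723 bp unstimulated and 993 to 1330 bp stimulated. In control unstimulated lists 5 and 6, which the fit did not use, it was 1160 and 1130 bp, inside the range of stimulated lists. In control LPS+IFN-γ list 5 it was 763 bp, closer to the unstimulated lists. Rgs2 ranked at 44.3, 47.5 and 26.2 in these 3 lists, and Hist1h4c at 86.8, 80.6 and 45.1. In the lists of the fit Rgs2 ranked at 13.5 to 41.6 unstimulated and 33.0 to 60.6 stimulated, and Hist1h4c at 12.9 to 54.6 and 58.6 to 96.7. Whether these libraries were exchanged was not tested, and their labels were kept.

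**Figure D4:**
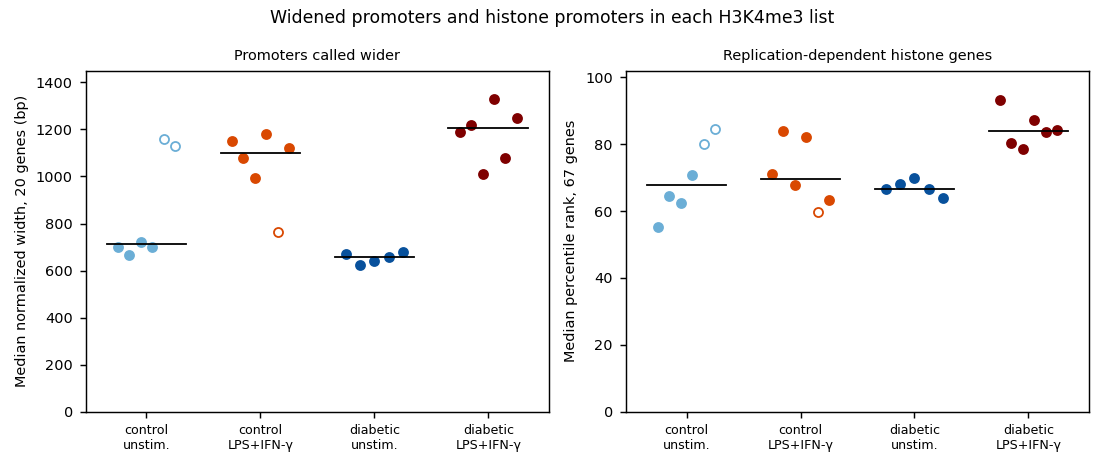
Median normalized width in bp of the 20 genes called wider without 3 control lists (left) and median percentile rank of 67 histone genes (right) in each H3K4me3 list, with group medians as lines and the 3 lists left out of the fit as open points. On the left, the gap between the states in the other lists was fixed by the choice of genes. There control unstimulated lists 5 and 6 sit at 1160 and 1130 bp, among the stimulated lists, and control LPS+IFN-γ list 5 at 763 bp. On the right, the states in the other lists overlap, at 55.2 to 70.9 unstimulated and 63.4 to 93.2 stimulated.

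Promoter occupancy compared whether a promoter held one of the 10000 strongest intervals of a list, so that list size did not enter. Of 21938 genes, 12760 (58.2%) were marked by some interval in all 23 lists and 3755 (17.1%) in none. A strongest interval was held in all lists by 1508 genes, and 0 genes held it in every list of a state and in no list of the other. Of 6265 testable genes, 0 were called more often and 0 less often in stimulated lists (0% each way, exact conditional test stratified by disease). At an unadjusted p under 0.05, 88 were held more often (1.4%) and 95 less often (1.52%).

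The genes of smallest p in occupancy did not pass, with an adjusted p of 1 throughout. B4galt3, a galactosyltransferase, held a strongest interval in 11 of 12 stimulated and 3 of 11 unstimulated lists, Tmem37 in 8 and 0, Hist1h4c in 10 and 2, and Mcm8, a helicase of DNA repair that shares its interval with Trmt6, in 10 and 2. On the other side Gramd4 held it in 2 of 12 stimulated and 10 of 11 unstimulated lists, Gtpbp8 in 4 and 11, Otud7a in 3 and 10, Spata3 in 2 and 9, and Zkscan6 in 2 and 9. Tmem37 ranked at 41.8 to 52.3 in all unstimulated lists and reached 85.5 in stimulated lists. Gramd4 ranked at 68.7 to 89.2 in unstimulated and 41.1 to 57.7 in stimulated diabetic lists, with no overlap.

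No gene was called for a different response in diabetic and control mice. The test of the difference itself gave 0 of 16910 genes (smallest adjusted p 0.294, 458 genes with a larger and 332 with a smaller difference in diabetic mice at an unadjusted p under 0.05, limma). The larger list medians in diabetic than in control mice are therefore descriptions. Without the 3 lists, all from control mice, this test also gave 0 genes (smallest adjusted p 0.455).

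The same rank test in the 23 H3K27ac lists of the same cells called 60 genes higher (0.369%) and 94 lower (0.578%) of 16275. In diabetic mice alone it called 56 higher (0.344%) and 76 lower (0.467%), and in control mice alone 0. Without the 3 lists in doubt it called 329 higher (2.02%) and 431 lower (2.65%). Among genes that H3K4me3 ranked, Iigp1 was higher for H3K27ac by 23.3 points (adjusted p = 0.0327) and Tarbp1 differed by −11.0 (adjusted p = 0.0375). Cxcl10 differed by +17.6 (adjusted p = 0.0327), Ccl5 by +16.4 (adjusted p = 0.049), Gbp3 by +18.1 (adjusted p = 0.0351), Gbp6 by +16.3 (adjusted p = 0.0449), Oasl1 by +19.7 (adjusted p = 0.033) and Ptgs2 by +15.8 (adjusted p = 0.0353), all called in H3K27ac and none in H3K4me3. The test of the difference between the marks gave 0 of 16728 genes in all lists, and 15 without the 3 control lists of each mark. Lists of both marks were fitted as independent, with no term for a shared culture. Because the lists left out were singled out by their H3K27ac values, the 15 are given as a description. Of these 15, H3K27ac gained more at 7 genes, among them Socs1 (−13.3 points in H3K4me3 and +14.1 in H3K27ac), Clic5 (+5.02 and +35.9) and Inhba, which encodes a subunit of activin (−9.94 and +19.0). H3K4me3 gained more at 8 genes, among them Hist1h3d (+19.0 and −11.5), Hist1h2bm (+16.7 and −13.2), Hist1h2ao and Hist1h2bq, which share their interval (+15.3 and −13.4), and the immediate-early nuclear receptor Nr4a1 (+8.03 and −22.3).

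The genes called in the H3K27ac lists of diabetic mice were then read in H3K4me3 lists. Control lists took no part in that choice. Of the 56 genes higher for H3K27ac, 48 were tested here, and in control mice 31 of 48 had a positive H3K4me3 difference, with a median of +1.97 points and 3 higher at an unadjusted p under 0.05. Of the 76 genes lower, 45 of 76 had a negative difference in control mice, with a median of −2.19 points and 2 lower at an unadjusted p under 0.05. Of all tested genes in control mice 48.8% were positive, 1.56% were higher and 1.76% lower at that p, so the 2 of 76 lay near the share of all genes. In diabetic mice the medians were +8.05 and −8.49 points, from lists that share the input library with the H3K27ac lists used for the choice.

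The H3K4me3 medians of the 56 genes minus those of the 76 genes were −41.8 to −27.0 points (median −35.2) in unstimulated control lists and −34.3 to −17.8 (median −31.3) in stimulated control lists. They were −43.0 to −32.4 (median −38.0) in unstimulated diabetic lists and −33.7 to −4.92 (median −20.2) in stimulated diabetic lists. The states overlapped in both disease groups. Because of this overlap the measure could not place the H3K4me3 lists of the 3 cultures in doubt. They gave −27.6 and −33.3 in control unstimulated lists 5 and 6 and −34.3 in control LPS+IFN-γ list 5. The other control lists lay at −41.8 to −27.0 unstimulated and −33.0 to −17.8 stimulated. In the H3K27ac lists of control mice the values were −44.7 to −5.68 (median −27.1) unstimulated and −36.9 to 5.36 (median −5.3) stimulated, and the 3 lists named at the start were the lowest stimulated and the 2 highest unstimulated values. 

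**Figure D5:**
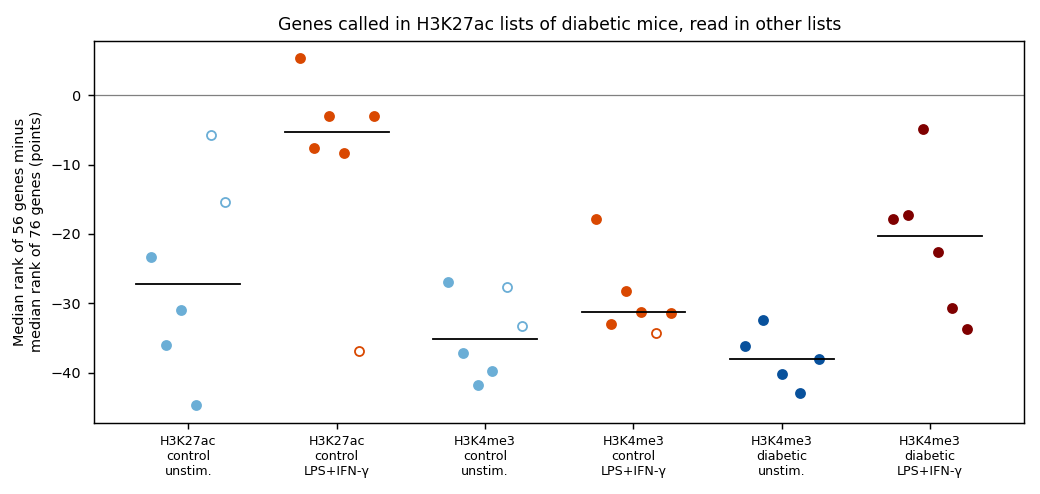
Median percentile rank of the 56 genes called higher minus that of the 76 genes called lower (points) in the H3K27ac lists of diabetic mice, read in control H3K27ac lists and in all H3K4me3 lists, with group medians as lines and the 3 control lists in doubt as open points. The medians of H3K4me3 lists run from −38.0 to −20.2 points, and those of control H3K27ac lists from −27.1 to −5.3.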

How the data were processed

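ChIP-seq for H3K4me3 was analysed in 23 BMDM libraries, with 23 H3K27ac libraries for comparison. The submitters' processing notes name Trim Galore 0.3.3, cutadapt 1.8, FastQC 0.11.3, Bowtie2 2.2.6, Picard 2.18.14 and 2.19.2, bedtools 2.19.1, MACS2 2.2.7.1 and the builds GRCm38 and mm10. Peaks were called per library against its own input. The deposited narrowPeak files give, at each summit, a fold ratio over background, a −log10 p and a −log10 q, all made by the authors. These files carry no read totals, so depth is unknown and no counting interval is given. A further 4 lists (control unstimulated list 6, control LPS+IFN-γ list 6, diabetic LPS+IFN-γ lists 1 and 2) had column values that did not come from whole-number pileups, and their scaling is unclear.

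Summits sharing coordinates were merged into intervals and joined to 93513 start sites of 21938 protein-coding genes (GENCODE M21). Ranks on −log10 p and quantile-normalized log2 widths were tested in limma 3.58.1 (R 4.3.3) with trend and a disease term. Occupancy used an exact conditional test and list measures an exact permutation of 426888 arrangements within disease groups (Python 3.11.15, numpy 2.4.6, pandas 2.3.3, scipy 1.17.1). p-values were Benjamini-Hochberg adjusted and called at 0.05. The gene tests were run on simulated data with independent genes and large changes, which does not show that they would find small ones. The genes, the 14 lists and the tests were chosen with earlier results of these data known. Named genes were called genes or, where none was called, the 6 of smallest p in each direction by rank and the 5 by width and by occupancy, up to 4 members of smallest p per list, and Il6, Hk1, Nos2, Cd274 and Irf1. Some genes that this rule names are not reported here. The histone list, the reading of left-out lists and the H3K27ac choices were added after seeing the data. Promoter sequences were matched by symbol or unique synonym, and Erich4, Hspa9, Iigp1, Itgal and Nos2 had no entry.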

Additional observations from a re-analysis of the deposited data

Results flagged for a closer look

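In 24 of 228 groups of 5 or 6 lists (10.5%), the highest or lowest list stood far from the others. The cutoff flags about 1 in 20 groups of normally distributed values. Ranks near the tied value of unmarked promoters do not follow that distribution, and many of the genes were picked for a small p. No excess over chance can therefore be read from this share. Control LPS+IFN-γ list 3 had 36.5% of genes with one of the 10000 strongest intervals and a median promoter width of 653 bp, and diabetic LPS+IFN-γ list 3 had 35.4% of genes with such an interval. The cause was not tested.

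The other values are percentile ranks of single promoters. In diabetic LPS+IFN-γ list 3 they were 79.2 for Iigp1, 89.8 for Ifit2, 50.1 for Gbp3 and 96.5 for Otud7a. In diabetic LPS+IFN-γ list 1 they were 95.7 for Gtpbp8 and 70.9 for Il27, in list 2 71.7 for Bcl3 and in list 6 64.4 for Hk1. In control LPS+IFN-γ list 1 they were 43.0 for Nos2, 96.7 for Oasl1 and 58.2 for Bcl3, and in list 2 73.9 for Spata3. In diabetic unstimulated list 2 they were 36.9 for Ccl2, 44.2 for Gbp3 and 31.0 for Il12b, in list 4 30.7 for Itgal, in list 5 76.4 for Mcm8, and in list 6 32.1 for Rgs2 and 45.1 for B4galt3. In control unstimulated list 5, one of the 3 lists in doubt, they were 30.6 for Iigp1 and 71.2 for Tarbp1.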

How the results depend on the processing

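The count of genes called by rank was 0 in all 23 lists, 2 without the 3 control lists (Rgs2 +27.1, Hist1h4c +32.5) and 1 without those and the 4 lists of unclear scaling (Rgs2 +31.0, a setting chosen after seeing the data). Width went from 0 to 20 genes without the 3 lists, to 1 with list size as a covariate, to 1 in diabetic mice alone, and to 0 to 3 when each list was left out (1 without control unstimulated list 1, 2 without list 5, 3 without list 6, 2 without control LPS+IFN-γ list 2). The difference between marks went from 0 to 15 genes without the 3 lists, and H3K27ac from 60 higher and 94 lower to 329 and 431. The 3 lists were singled out by the response of the same cultures, so these calls are not independent evidence.

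The small differences between lists changed sign. Adjusted for background rate they were −0.1 (log2 intervals), −0.09 (log2 covered length) and −0.648 (percentage points of genes marked). In control mice alone they were −0.17, −0.22 and −1.16, with −0.09 for log2 width. In diabetic mice alone they were 0.22, 0.31 and 1.27, with 0.19 for log2 width (adjusted p = 0.685 for each, exact permutation). Whether these list differences had a part in the gene values of diabetic mice was not tested. Leaving out each list gave −0.08 to 0.13, −0.06 to 0.15, −0.555 to 0.773, −0.572 to 0.167 (genes with a strongest interval) and 0.02 to 0.11 (log2 width). The rank difference of Hk1 ran from −0.162 (without control LPS+IFN-γ list 1) to 3.62 points. The cause was not tested. For the pairing, 5 of 11 same-numbered pairs correlated above 0.1 (−0.0111 to 0.365) and 4 stimulated lists correlated best with their own number, too few to treat the lists as paired. Whether they share a mouse or batch was not tested. With the replicate block the differences were −0.05, −0.00884, −0.166 and 0.118, and 0 genes were called by rank, width or occupancy. Depth is unknown.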
